A study of Mus musculus with 10 samples.

Results

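Antisense RNAs are transcripts annotated on the strand opposite to another gene, mostly long and without a protein product. The genes described here were the 94 genes that the deposited count table gives the biotype antisense and that were chosen by a summed count of at least 200 over the 10 libraries. They were 94 of 2826 antisense genes and of 54532 genes in the table. The choice used the sum over both groups and not the difference between them. Of the 94, 73 had at least 100 reads in each group, and the other 21 reached 200 only because 1 group was the higher, so counts of changed genes among those 21 carry no weight of their own. The libraries were made from RNA of whole hearts of 8-week-old C57BL/6 mice. There were 5 libraries from mice 24 h after lipopolysaccharide (LPS), the bacterial outer membrane component that activates Toll-like receptor signalling, and 5 from mice injected with saline. The labels name no allele, sex, LPS dose, batch or pooling of animals, and number the libraries of each group 1 to 5.

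Transcription of an antisense RNA can silence the gene across from it, as Airn does to Igf2r on the paternal chromosome, or can simply accompany it where both start at a shared promoter region. Other antisense RNAs act away from their locus or carry microRNAs in their sequence. In the heart, Mhrt, antisense to the myosin heavy chain gene Myh7, is known to bind the chromatin remodeller Brg1 and to protect against pressure overload in mice. A library kit that does not keep strand cannot separate reads of an antisense exon from reads of the exon it overlaps, and neither labels nor table headers say whether these counts used strand.

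Library totals lay between 14607969 and 17012372 reads. Heart muscle markers (Myh6, Tnnt2, Actc1, Ryr2 and Pln) summed to 30900–34400 CPM (reads scaled to a common effective library size) in LPS hearts and 28200–36100 CPM in saline hearts, with none of the 5 called changed. All 5 endothelial markers fell by edgeR's test, with sums of 407–535 CPM in LPS hearts and 694–1300 CPM in saline hearts. Of the tested markers of other types, 2 of 5 for fibroblasts, 1 of 4 for smooth muscle and pericytes and 1 of 5 for macrophages fell. Among 3 tested neutrophil markers 1 rose, and no tested T cell, erythroid or mesothelial marker was called. In whole hearts, fewer cells of a type and less RNA per cell cannot be told apart. Saline replicate 5 stood apart for several genes that differed between the groups, in the direction of the LPS libraries, so results that rest on it are given with and without it.

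Most antisense RNAs of this size were not called changed 24 h after LPS. By edgeR's quasi-likelihood test at an adjusted p under 0.05, 17 rose, 8 fell and 69 were not called. Thus 26.6% of the 94 were called, against 39.9% of all 13864 tested genes. The share that rose was 18.1%, against 18.9% of all tested genes, and the share that fell was 8.51%, against 21.0%. Of the 21 with under 100 reads in a group, 8 rose and 4 fell. Of the 73 with at least 100 reads in each group, 9 rose, 4 fell and 60 were not called, but a minimum in each group itself leaves out genes that changed much, so neither share stands as a rate for antisense RNAs. The median log2 fold change, LPS over saline, was -0.02 for the 94 and -0.02 for all tested genes, and 63 of the 94 changed by less than 0.5 on the log2 scale.

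The split of calls depended on how libraries were scaled. With total count scaling, 14 rose and 21 fell, and with upper quartile scaling 14 rose and 14 fell, against 17 and 8 with the TMM factors used here. These scalings moved the median of all genes to -0.30 and -0.18 on the log2 scale, and the median of the 94 moved with it to -0.29 and -0.18. Leaving out saline replicate 5 gave 20 that rose and 8 that fell, among them all 17 and all 8 of the full comparison. The same omission called 44.0% of all tested genes, 21.0% higher and 22.9% lower.

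The groups did not overlap for 21 of the 94, or 22.3%, against 28.4% of all tested genes. In 16 of these every LPS library was above every saline library (14.3% of all tested genes) and in 5 every LPS library was below (14.1% of all tested genes). The antisense RNAs were low, with mean levels of 1.29 to 44.5 CPM and a median of 3.21 CPM, against a median of 15.4 CPM over all tested genes. Changes of at least 2-fold were seen in 12 of those that rose and 5 of those that fell, among 94, while 8.99% of all tested genes were called at least 2-fold higher and 7.8% at least 2-fold lower. All 8 rises and all 4 falls of the 21 RNAs with under 100 reads in a group were among these. Those passed the minimum only through their higher group, so the counts of 2-fold changes do not stand as a rate either.

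**Figure D1:**
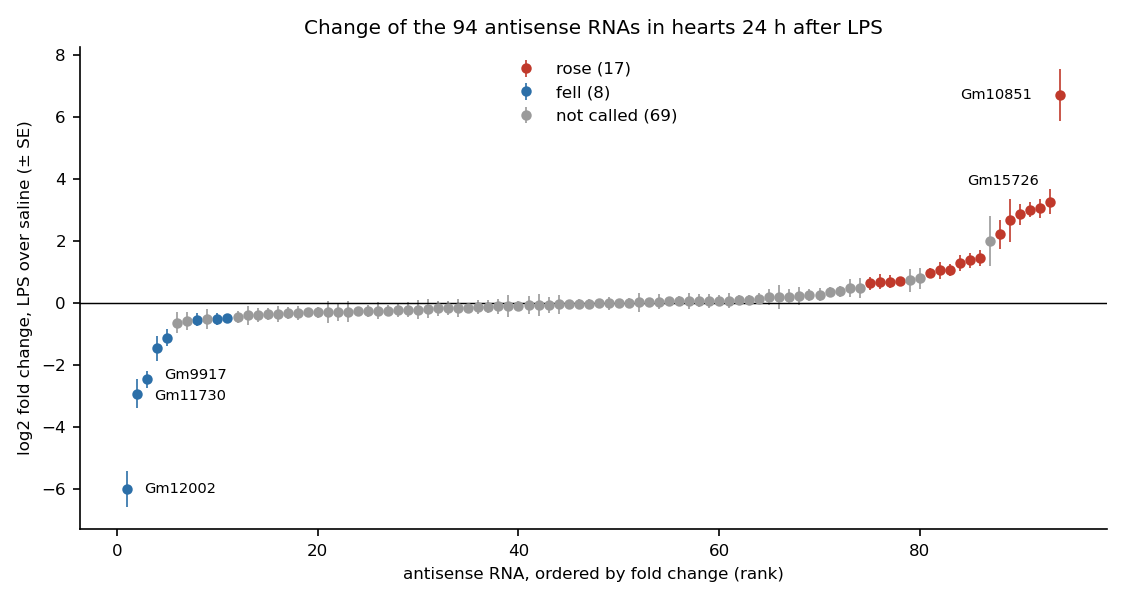
Log2 fold change (LPS over saline, with standard error) of the 94 antisense RNAs in order of size, coloured by edgeR call. Of the 69 that were not called, AC113595.1 at 1.98 lies farthest from 0, while Gm10851 at 6.71 and Gm12002 at -6.01 mark the ends.

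The largest rise was that of Gm10851 (ENSMUSG00000102329, GRCm38 chr2:11521706-11530836, plus strand), which lies inside Pfkfb3 on the opposite strand. Gm10851 had 47.3, 35.2, 20.5, 32.6 and 34.8 CPM in LPS hearts, against 0, 0, 0, 0 and 1.66 CPM in saline hearts. The groups did not overlap, and the only saline library with reads was replicate 5. The log2 fold change was 6.71 ± 0.83 (SE, edgeR adjusted p = 0.000284). Set against saline replicates 1 to 4 alone, with a floor of 3 reads over those libraries together, the level was at least 813-fold higher. Pfkfb3, the gene of an enzyme that makes an activator of glycolysis, had 612, 654, 591, 619 and 622 CPM in LPS hearts, against 14.3, 19.4, 15.5, 20.8 and 409 CPM in saline hearts. Saline replicate 5 again stood apart, and Pfkfb3 was not called with it (log2 fold change 2.69 ± 1.11, edgeR adjusted p = 0.0882) but was without it (5.15, edgeR adjusted p = 4e-13). With all 10 libraries Pfkfb3 was called higher by DESeq2 (adjusted p = 0.0134), by limma voom (adjusted p = 0.00399) and by edgeR with the replicate number as a block (adjusted p = 0.0314). No exon of Gm10851 shares a base with an exon on the opposite strand. Whether reads of Pfkfb3 introns entered its count was not tested.

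The RefSeq promoter windows of the strongest riser, of another strong riser and of the strongest faller are shown because they are the regulatory sequence nearest to the largest changes. Each runs from 250 bases before to 50 bases after the RefSeq start (GRCm38.p6, from RefSeq). Capitals mark a match to the letters GGGANNNNCC, searched on both strands and called the kappaB letters here. They are a simplified stand-in for the kappaB pattern of NF-kappaB, and a match need not fit that pattern in full. Other forms of the pattern were not searched, so a window without a match may still hold one.
Gm10851 (chr2:11521392-11521691, plus strand): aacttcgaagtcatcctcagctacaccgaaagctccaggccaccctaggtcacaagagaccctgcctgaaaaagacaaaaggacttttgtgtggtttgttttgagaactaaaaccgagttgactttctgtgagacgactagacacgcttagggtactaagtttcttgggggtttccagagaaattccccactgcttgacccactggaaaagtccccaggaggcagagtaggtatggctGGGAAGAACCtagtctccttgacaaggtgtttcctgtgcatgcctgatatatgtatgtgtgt
Gm10791 (chr16:84971961-84972260, plus strand): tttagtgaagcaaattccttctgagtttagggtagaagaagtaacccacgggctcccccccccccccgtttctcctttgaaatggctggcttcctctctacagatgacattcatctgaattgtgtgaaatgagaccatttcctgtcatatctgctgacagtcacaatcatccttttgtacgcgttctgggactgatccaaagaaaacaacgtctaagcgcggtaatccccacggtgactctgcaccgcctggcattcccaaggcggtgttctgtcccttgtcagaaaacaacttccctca
Gm12002 (chr11:12314237-12314536, plus strand): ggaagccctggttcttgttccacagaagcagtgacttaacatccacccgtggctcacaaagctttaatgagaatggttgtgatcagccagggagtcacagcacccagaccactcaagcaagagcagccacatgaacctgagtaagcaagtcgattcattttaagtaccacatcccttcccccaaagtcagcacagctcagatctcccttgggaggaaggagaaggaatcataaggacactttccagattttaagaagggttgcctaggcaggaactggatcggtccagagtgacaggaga
The Gm10851 window held 1 such match, in the plus orientation, and the Gm10791 and Gm12002 windows held none. A promoter entry existed for 52 of the 94. The kappaB letters were in 12 of these, of which 1 rose, 1 fell and 10 were not called, against 20.7% of all 32851 promoter windows. The letters GAAANNGAAA of an interferon response element, also searched on both strands, were in 2, neither of them called, against 3.44% of all windows. TATAAA, searched on both strands as well, was in 4, against 13.6% of all windows. Of these 1 rose, D130020L05Rik, which held the letters only in the other orientation, as TTTATA. A match is a stretch of letters and not a site.

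The next largest rises were of Gm15726, Gm9869, Gm16685 and Gm10791. Gm15726 (chrX:169979047-169985232, minus strand) had 8.29, 4.51, 4.91, 7.20 and 4.72 CPM in LPS hearts, against 0.729, 0.445, 0.0560, 0.694 and 1.13 CPM in saline hearts. It lies inside Mid1, a microtubule-bound ubiquitin ligase, which averaged 23.0 ± 7.43 CPM in LPS hearts and 3.11 ± 0.889 CPM in saline hearts (SD, n = 5 each). Both rose, by 3.27 ± 0.40 and 2.88 ± 0.25 on the log2 scale (SE, edgeR adjusted p = 2.89e-05 and 3.02e-06). The pair shares 144 exonic bases, and reads of these cannot be told apart without strand.

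Gm9869 (chr9:60821552-60838200, minus strand) had 17.2, 12.1, 6.99, 11.5 and 7.70 CPM in LPS hearts, against 1.15, 1.06, 0.784, 1.33 and 2.37 CPM in saline hearts. The lowest LPS library was well above the highest saline library, which was replicate 5. The log2 fold change was 3.05 ± 0.32 (SE, edgeR adjusted p = 7.84e-06). Uaca, a coiled-coil protein with ankyrin repeats that contains Gm9869 in its span, also rose, by 1.64 ± 0.16 on the log2 scale (SE, edgeR adjusted p = 3.7e-06), and no exonic base is shared.

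Gm16685 (chr3:7612705-7690001, plus strand) starts across the 5′ end of Il7, the gene of a lymphocyte growth factor. Gm16685 had 4.84, 3.73, 3.92, 3.84 and 3.41 CPM in LPS hearts, against 0.365, 0.557, 0.448, 0.405 and 0.653 CPM in saline hearts. The log2 fold change was 3.01 ± 0.24 (SE, edgeR adjusted p = 6.35e-07). Il7 itself averaged 0.602 ± 0.528 CPM in LPS hearts and 0.719 ± 0.363 CPM in saline hearts (SD, n = 5 each), too low to be tested.

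Gm10791 (chr16:84972214-84979451, plus strand) lies inside App, the gene of the amyloid precursor protein, and shares no exonic base with it. Gm10791 had 3.94, 3.11, 2.45, 3.03 and 2.40 CPM in LPS hearts, against 0.261, 0.223, 0.336, 0.405 and 0.831 CPM in saline hearts. It rose by 2.85 ± 0.33 on the log2 scale (SE, edgeR adjusted p = 1.47e-05), while App averaged 298 ± 25.1 CPM in LPS hearts and 265 ± 18.0 CPM in saline hearts (SD, n = 5 each) and was not called.

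Gm11772, Gm17473 and Gm11696 completed the 8 largest rises. Gm11772, inside the chromatin protein gene Bahcc1 (chr11:120235234-120236122, minus strand), had 4.84, 3.73, 1.59, 4.09 and 1.16 CPM in LPS hearts, against 0.0521, 0.445, 0.0560, 0.347 and 1.54 CPM in saline hearts. The groups overlapped because of saline replicate 5, and the log2 fold change was 2.66 ± 0.70 with it (SE, edgeR adjusted p = 0.0112) and 3.74 without it. Gm17473, across the 5′ end of the vessel-stabilising ligand gene Angpt1 (chr15:42676241-42704616, plus strand), had 3.25, 5.59, 0.981, 5.73 and 1.67 CPM in LPS hearts, against 0.469, 0.724, 0.784, 0.867 and 0.831 CPM in saline hearts. Its groups did not overlap, but LPS replicate 3 was close to the saline range (log2 fold change 2.21 ± 0.45, SE, edgeR adjusted p = 0.00164). Gm11696, across the 5′ end of the G protein gene Gna13 (chr11:109352835-109363654, minus strand), had 2.14, 2.10, 1.96, 2.21 and 1.82 CPM in LPS hearts, against 0.469, 0.779, 0.672, 0.751 and 1.07 CPM in saline hearts. It rose by 1.45 ± 0.26 on the log2 scale (SE, edgeR adjusted p = 0.000476).

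The other 9 that rose had log2 fold changes of 0.63 to 1.38. They were Uckl1os (1.38), Gm33023 (1.29), 9530082P21Rik (1.05), AC166164.1 (1.05), Foxo6os (0.98), Gm48882 (0.70), D130020L05Rik (0.69), Dnm3os (0.69) and Gm37305 (0.63). Foxo6os had 12.2, 9.94, 10.5, 9.49 and 11.5 CPM in LPS hearts, against 7.35, 4.34, 6.05, 5.26 and 4.27 CPM in saline hearts. Despite its name its span does not overlap that of Foxo6, a forkhead transcription factor gene, which averaged 3.17 ± 0.748 CPM in LPS hearts and 3.28 ± 1.16 CPM in saline hearts (SD, n = 5 each) and was not called. Dnm3os, D130020L05Rik and Gm37305 lost their calls in 10, 4 and 8 of the 18 alternatives tried, with edgeR adjusted p of up to 0.142, 0.127 and 0.173.

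AC113595.1, Etohd2 and A030001D20Rik were called by edgeR when saline replicate 5 was left out, and not with it. AC113595.1 had 12.7, 10.6, 8.59, 9.24 and 6.17 CPM in LPS hearts, against 0.365, 0.946, 0.560, 1.10 and 9.14 CPM in saline hearts. Its log2 fold change was 1.98 ± 0.81 with replicate 5 (SE, edgeR adjusted p = 0.0842) and 3.67 without it (edgeR adjusted p = 6.93e-08). With all 10 libraries AC113595.1 was called higher by DESeq2 (adjusted p = 0.0394) and limma voom (adjusted p = 0.00244), and A030001D20Rik by DESeq2 (adjusted p = 0.045). A030001D20Rik was also called by edgeR without LPS replicate 1 (adjusted p = 0.0341). AC113595.1 overlaps no gene of the table on the opposite strand. It shares 676 exonic bases on its own strand with Apobec3, a restriction factor of retroviruses, which had 78.8, 77.4, 53.0, 73.2 and 68.2 CPM in LPS hearts, against 7.81, 12.8, 9.07, 9.07 and 47.2 CPM in saline hearts. Apobec3 rose by 2.03 ± 0.54 on the log2 scale (SE, edgeR adjusted p = 0.0164), and reads of the bases that both genes hold cannot be told apart.

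**Figure D2:**
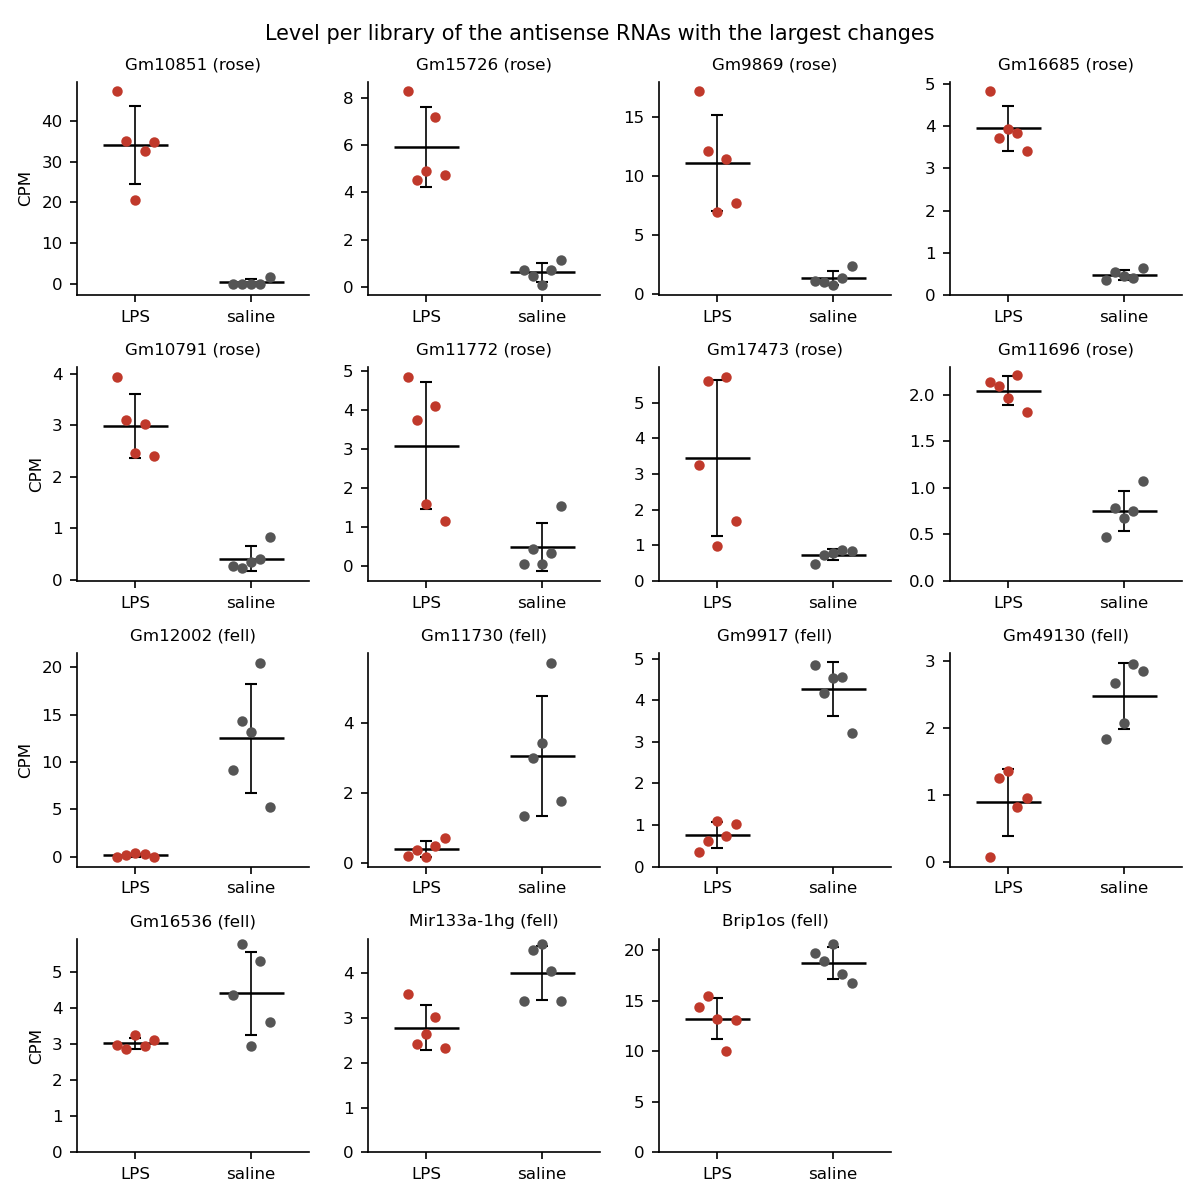
Level in CPM of each library for the 8 antisense RNAs that rose most (upper panels) and 7 of the 8 that fell (lower panels), LPS left and saline right, with mean and SD. The groups are apart in most panels, and in those of Gm11772, Gm16536 and Mir133a-1hg they overlap.

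The largest fall was that of Gm12002 (ENSMUSG00000086584, chr11:12314514-12351028, plus strand), inside Cobl, the gene of an actin nucleator. Gm12002 had 0, 0.233, 0.368, 0.327 and 0 CPM in LPS hearts, against 9.17, 14.4, 13.2, 20.5 and 5.28 CPM in saline hearts. The LPS libraries held 13 reads of it in all and the saline libraries 1112. The log2 fold change was -6.01 ± 0.58 (SE, edgeR adjusted p = 1.49e-05). Cobl averaged 7.66 ± 1.84 CPM in LPS hearts and 7.81 ± 1.98 CPM in saline hearts (SD, n = 5 each), and no exonic base is shared. The endothelial markers and some markers of other cell types fell in the same libraries, and the part of these cell types in this and the other falls was not tested.

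Gm11730 (chr11:117094948-117097067, minus strand), which overlaps no opposite-strand gene of the table, had 0.207, 0.388, 0.184, 0.491 and 0.726 CPM in LPS hearts, against 1.35, 3.01, 3.42, 5.72 and 1.78 CPM in saline hearts. It fell by 2.94 ± 0.47 on the log2 scale (SE, edgeR adjusted p = 0.000205), with no overlap between the groups. Gm9917 (chr9:107558809-107568415, minus strand) had 0.345, 0.622, 1.10, 0.736 and 1.02 CPM in LPS hearts, against 4.85, 4.17, 4.54, 4.57 and 3.20 CPM in saline hearts. It runs across the 3′ end of Rassf1, the gene of a Ras-association scaffold protein, and shares 49.5% of its exonic bases with opposite-strand genes. Gm9917 fell by 2.46 ± 0.27 on the log2 scale (SE, edgeR adjusted p = 9.57e-06) while Rassf1 rose by 0.54 ± 0.14 (SE, edgeR adjusted p = 0.00625). Among the 71 tested pairs of an antisense RNA with its longest-overlap gene, this pair alone was called in opposite directions. Rassf1 kept its direction but not its call with total count scaling.

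An antisense RNA of a myosin gene was among those that fell. Gm49130, across the 3′ end of the alpha myosin heavy chain gene Myh6 (chr14:54940355-54942852, plus strand), had 0.0691, 1.24, 1.35, 0.818 and 0.944 CPM in LPS hearts, against 1.82, 2.67, 2.07, 2.95 and 2.85 CPM in saline hearts. It fell by 1.47 ± 0.40 on the log2 scale (SE, edgeR adjusted p = 0.00954). Myh6 averaged 16537 ± 1247 CPM in LPS hearts and 16182 ± 2084 CPM in saline hearts (SD, n = 5 each) and was not called.

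The 3 smallest falls were of 0.54 or less on the log2 scale. Brip1os, which contains the Integrator subunit gene Ints2, had 14.4, 15.5, 13.2, 10.1 and 13.1 CPM in LPS hearts, against 19.7, 18.9, 20.6, 17.6 and 16.8 CPM in saline hearts, and fell by 0.50 ± 0.12 (SE, edgeR adjusted p = 0.00469). Gm16536, inside the beta-secretase gene Bace1, averaged 3.03 ± 0.152 CPM in LPS hearts and 4.41 ± 1.16 CPM in saline hearts. Mir133a-1hg, a host transcript of muscle microRNAs inside Mib1, averaged 2.78 ± 0.495 CPM in LPS hearts and 3.99 ± 0.60 CPM in saline hearts (SD, n = 5 each, for both genes). The groups overlapped for Gm16536 and Mir133a-1hg (edgeR adjusted p = 0.0453 and 0.0404). Their calls were lost in 12 and 10 of the 18 alternatives, with edgeR adjusted p of up to 0.154 and 0.111.

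Of a list of 49 named long noncoding RNAs, 5 were among the 94, and Dnm3os alone of these was called. Dnm3os, a host transcript of microRNAs inside the dynamin gene Dnm3, had 3.11, 3.50, 2.70, 3.52 and 3.63 CPM in LPS hearts, against 1.56, 1.28, 1.74, 2.31 and 3.32 CPM in saline hearts. Saline replicate 5 lay within the LPS range, and the log2 fold change was 0.69 ± 0.25 with it (SE, edgeR adjusted p = 0.0436) and 0.93 without it. Mhrt had 9.26, 7.15, 7.67, 7.93 and 8.35 CPM in LPS hearts, against 8.18, 9.24, 7.67, 7.75 and 8.66 CPM in saline hearts, with a log2 fold change of -0.04 ± 0.12. Its partner Myh7 averaged 57.1 ± 8.99 CPM in LPS hearts and 65.8 ± 21.6 CPM in saline hearts (SD, n = 5 each) and was not called.

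Airn and Kcnq1ot1 are RNAs of imprinted domains. Airn had 4.97, 6.22, 5.58, 6.22 and 10.5 CPM in LPS hearts, against 5.99, 6.46, 6.27, 6.99 and 6.05 CPM in saline hearts, while Igf2r averaged 141 ± 6.54 CPM in LPS hearts and 154 ± 12.6 CPM in saline hearts (SD, n = 5 each). Kcnq1ot1 had 1.17, 1.32, 1.29, 0.981 and 3.41 CPM in LPS hearts, against 1.41, 3.17, 1.74, 1.91 and 1.84 CPM in saline hearts. LPS replicate 5 was the highest for both RNAs, and neither they nor Igf2r and Kcnq1 were called. Without LPS replicate 5, Kcnq1 was called higher (0.35, edgeR adjusted p = 0.0247) and the log2 ratio of Kcnq1ot1 to Kcnq1 lower (-0.89, limma adjusted p = 0.0155). Igf2r was called lower with upper quartile (-0.29) and total count scaling (-0.40), by edgeR adjusted p of 0.0085 and 0.00213. Tug1, a widely expressed RNA across the 5′ end of Morc2a, had 32.7, 35.7, 38.9, 35.1 and 53.1 CPM in LPS hearts, against 46.2, 48.9, 43.5, 51.8 and 45.2 CPM in saline hearts. Without LPS replicate 5, Tug1 was called lower (log2 fold change -0.40, edgeR adjusted p = 0.00235), and with it Tug1 was not (-0.27, edgeR adjusted p = 0.0968). With all 10 libraries Tug1 was called lower with upper quartile scaling (-0.43, edgeR adjusted p = 0.0128) and total count scaling (-0.54, edgeR adjusted p = 0.00528), which also moved all genes down.

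Of all 49 genes on that list, whatever their biotype, 14 were tested, 2 rose and 4 fell. Of a list of 27 host transcripts of microRNAs and small nucleolar RNAs, 17 were tested, 5 rose and 2 fell, and none was among the 94. That list is not complete and leaves out Dnm3os and Mir133a-1hg, which are among the 94. Mir155hg, the host of a microRNA of inflammation and a lincRNA in the table, averaged 9.60 ± 3.44 CPM in LPS hearts and 0.615 ± 0.827 CPM in saline hearts (SD, n = 5 each).

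The 6 antisense RNAs with the highest mean level were C130080G10Rik, Tug1, Atcayos, Gm47547, Gm15543 and Gm10851, and Gm10851 alone of these was called. C130080G10Rik had 51.9, 50.2, 35.4, 47.0 and 41.9 CPM in LPS hearts, against 46.6, 32.5, 46.3, 36.6 and 56.5 CPM in saline hearts. It shares 1001 exonic bases with another gene on its own strand. Gm47547 averaged 25.3 ± 3.0 CPM in LPS hearts and 24.8 ± 4.24 CPM in saline hearts (SD, n = 5 each), although its partner Dydc2 had no read in any library. At the other end, Gm26982, Gm33023 and Gm11696 had summed counts of 200, 203 and 208, just inside the minimum, and Gm37422, 4930579G18Rik and 2310016G11Rik had 199, 198 and 196, just outside it.

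By coordinates, 85 of the 94 overlapped at least 1 gene of the table on the opposite strand and 9 overlapped none. The gene with the longest overlap was taken as the partner and was protein coding in 82 cases. Of the 85, 33 lay inside the partner, 28 overlapped it at 5′ ends, 19 overlapped it at 3′ ends and 5 contained it. Exons could be read from GENCODE M21 for 93 of the 94. In 32 of these no exonic base was shared with an opposite-strand gene, in 23 under 10% of the exonic bases were shared and in 3 at least 50% were.

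For 57 of the antisense RNAs with shared exons, the reads that opposite-strand genes would place on the shared bases were worked out by spreading the reads of each gene evenly over its exons. In 25 of the 57 this number exceeded the reads counted for the antisense RNA itself, and in 3 it did so at least 10-fold. Over the 10 libraries it came to 43970 for Gm49130 (Myh6), 8813 for Gm10138 (Ivns1abp) and 4460 for Gm33023 (Rrad), against 281, 240 and 203 reads counted for these RNAs. For these 3 the counted reads were therefore far fewer than an even share of the partner's reads. For the others the part of the count that came from the partner cannot be told apart.

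**Figure D3:**
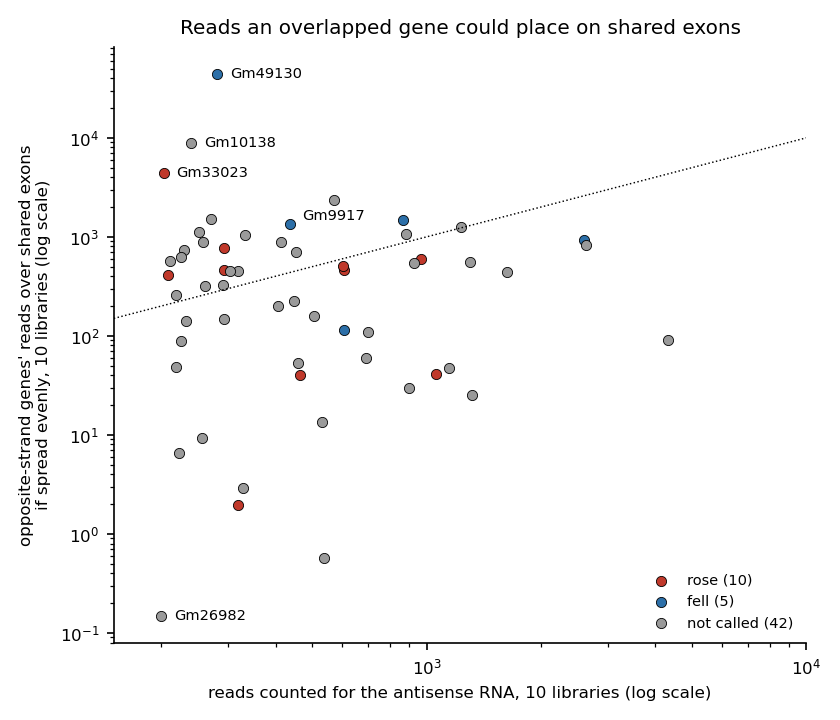
For 57 antisense RNAs, reads of opposite-strand genes over the shared exons if spread evenly (vertical, log scale) against reads counted for the antisense RNA (horizontal, log scale), summed over the 10 libraries. The dotted line marks equality; 25 points lie above it, with Gm49130 the highest and Gm26982 the lowest.

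Whether an antisense RNA moved more or less than its partner was tested on the log2 ratio of their CPM within each library (0.5 CPM added to both), with limma over all 1436 opposite-strand pairs of tested genes. The added amount shrinks the change of a gene whose level is near it. A ratio change therefore need not equal the difference between the log2 fold changes of the pair. Of the 85 pairs, 71 could be tested, since in the other 14 the longest-overlap partner was too low. Some of these antisense RNAs also overlap a gene with many more reads, which was not paired here. Examples are Isca1 for Etohd2 and Drap1 for 4930481A15Rik, with means of 238 and 111 CPM over all libraries, neither of them called. The ratio rose in 15, fell in 16 and was not called in 40. That was 43.7% called, against 38.2% of all tested pairs, with 21.1% higher against 18.0% and 22.5% lower against 20.2%. Per length, the antisense RNA was the lower transcript in most pairs, with a median ratio of 0.253 to its partner in FPKM in saline hearts, and the higher in 19 of the 71.

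Of the 14 tested pairs in which the antisense RNA rose, the partner rose in 7, was not called in 7 and fell in none. Of the 7 in which it fell, the partner rose in 1 and was not called in 6. Of the 50 in which it was not called, the partner rose in 7 and fell in 10. These counts hold for the longest-overlap gene alone, and the overlapped gene with the most reads can differ. For Brip1os, which fell, it was Med13, which rose by 0.80 ± 0.14 (SE, edgeR adjusted p = 0.000501). For 9530082P21Rik, which rose, it was Flywch1, which fell by 0.45 ± 0.10 (SE, edgeR adjusted p = 0.00335). For Gm9917 it was Tusc2, which was not called. Across the 71 pairs the 2 log2 fold changes had a Pearson correlation of 0.43 and a Spearman correlation of 0.20, against 0.33 and 0.25 over all 1436 pairs. Both genes of a pair come from the same libraries and some share bases. Among the 45 pairs with shared exons 24 had the same sign and 51.1% a called ratio, and among the 24 pairs without, 14 had the same sign and 33.3% a called ratio; this difference was not tested.

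**Figure D4:**
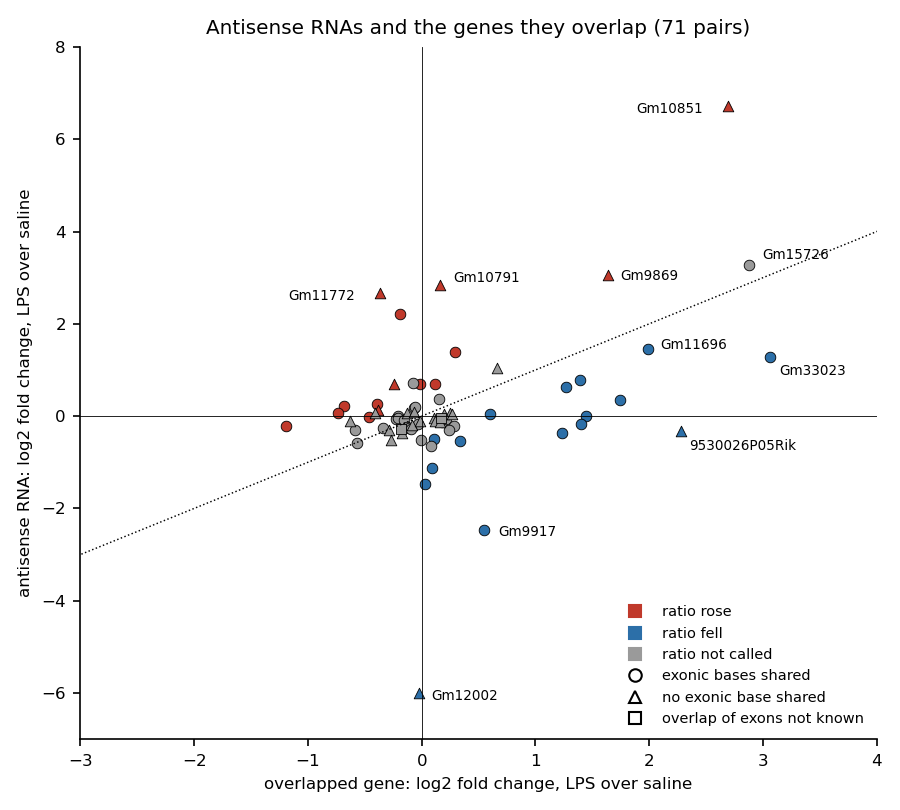
Log2 fold change of the antisense RNA (vertical) against that of the gene it overlaps (horizontal) for 71 tested pairs, coloured by the limma call on the ratio and shaped by exon overlap. Points on the dotted line moved equally; Gm10851 and Gm12002 lie far from it, and Gm15726 lies close to it, although its ratio to Mid1 was called lower with 2 CPM added (-0.67, limma adjusted p = 0.000929).

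The ratio rose most for Gm11772, Gm10791, Gm17473 and Gm10851. For Gm11772 the log2 ratio to Bahcc1 averaged -1.89 ± 0.71 in LPS hearts and -4.11 ± 1.03 in saline hearts (SD, n = 5 each), a change of 2.22 ± 0.46 (SE, limma adjusted p = 0.00187). For Gm10791 it changed by 1.79 ± 0.20 against App (SE, limma adjusted p = 1.8e-05), and for Gm17473 by 1.68 ± 0.28 against Angpt1 (SE, limma adjusted p = 0.000417). In these 3 pairs the antisense RNA rose and the partner was not called with all 10 libraries and TMM scaling. Bahcc1 was called lower without saline replicate 5 (-0.46, edgeR adjusted p = 0.0138) and with upper quartile and total count scaling (edgeR adjusted p = 0.0168 and 0.00775). The log2 ratio of Gm10851 to Pfkfb3 averaged -4.21 ± 0.40 in LPS hearts and -5.64 ± 1.10 in saline hearts (SD, n = 5 each), a change of 1.42 ± 0.43 (SE, limma adjusted p = 0.0186). Because Gm10851 was at 0 in 4 saline libraries this value depends on the amount added, and with 2 CPM added it was -0.17 and not called. Without saline replicate 5 the change was 0.94 (limma adjusted p = 0.00426).

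Smaller rises of the ratio came from both sides. Gm9869 rose more than Uaca (change 1.05 ± 0.19, SE, limma adjusted p = 0.000923) and Uckl1os more than the uridine kinase-like gene Uckl1 (0.99 ± 0.22, SE, limma adjusted p = 0.00368). With 2 CPM added, the change of Gm9869 against Uaca was 0.35 and not called (limma adjusted p = 0.0525). The small rise of Uckl1 itself, 0.29 on the log2 scale, was not called with upper quartile or total count scaling, or without saline replicate 4. In 5 pairs the partner fell while the antisense RNA was not called. The largest of these was 1110002L01Rik, with 1.49 ± 0.493 CPM in LPS hearts and 1.74 ± 0.549 CPM in saline hearts, across the 3′ end of the kinesin gene Kif3c, with 2.96 ± 0.516 CPM in LPS hearts and 6.76 ± 1.58 CPM in saline hearts (SD, n = 5 each). C330011M18Rik stood likewise to the transcription factor gene Rfx1, Gm15417 to Zbtb7b, Gm26782 to Tep1 and Gm10516 to the corepressor gene Rcor3, with partner log2 fold changes of -0.69, -0.74, -0.40 and -0.46. The limma adjusted p of Gm15417, Gm26782 and Gm10516 was 0.0476, 0.0425 and 0.0457, and all 3 lost the call in 6 or more of the alternatives.

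The ratio fell most for Gm12002, 9530026P05Rik, Gm9917 and Gm33023. For Gm12002 the log2 ratio to Cobl averaged -3.58 ± 0.27 in LPS hearts and 0.55 ± 0.52 in saline hearts (SD, n = 5 each), a change of -4.13 ± 0.24 (SE, limma adjusted p = 1.72e-07). For 9530026P05Rik it changed by -2.57 ± 0.28 against Adamts9 (SE, limma adjusted p = 1.58e-05). Adamts9, a secreted metalloproteinase gene, had 157, 157, 214, 154 and 253 CPM in LPS hearts, against 36.7, 37.0, 29.7, 32.8 and 56.1 CPM in saline hearts. 9530026P05Rik, which overlaps its 5′ end with no exonic base shared, had 2.56, 3.65, 3.25, 3.27 and 2.11 CPM in LPS hearts, against 3.18, 4.29, 4.09, 3.81 and 3.26 CPM in saline hearts, and was not called. The ratio of Gm9917 to Rassf1 changed by -2.45 ± 0.24 (SE, limma adjusted p = 7.85e-06).

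Gm33023 and Gm11696 rose less than their partners. Gm33023, across the 5′ end of Rrad, had 1.87, 1.17, 2.33, 1.88 and 2.25 CPM in LPS hearts, against 0.677, 0.724, 0.896, 0.809 and 0.771 CPM in saline hearts. Rrad, a small GTPase that restrains the L-type calcium channel of heart muscle, had 682, 622, 579, 732 and 505 CPM in LPS hearts, against 89.9, 74.0, 74.8, 66.3 and 67.5 CPM in saline hearts. The log2 fold changes were 1.29 ± 0.26 for Gm33023 and 3.07 ± 0.12 for Rrad, and the log2 ratio changed by -2.17 ± 0.21 (SE, limma adjusted p = 7.82e-06). Gna13 rose by 1.99 ± 0.20, and the log2 ratio of Gm11696 to it changed by -0.98 ± 0.17 (SE, limma adjusted p = 0.000488). Both antisense RNAs were low in saline hearts, so the sizes of these ratio changes depend on the 0.5 CPM added.

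**Figure D5:**
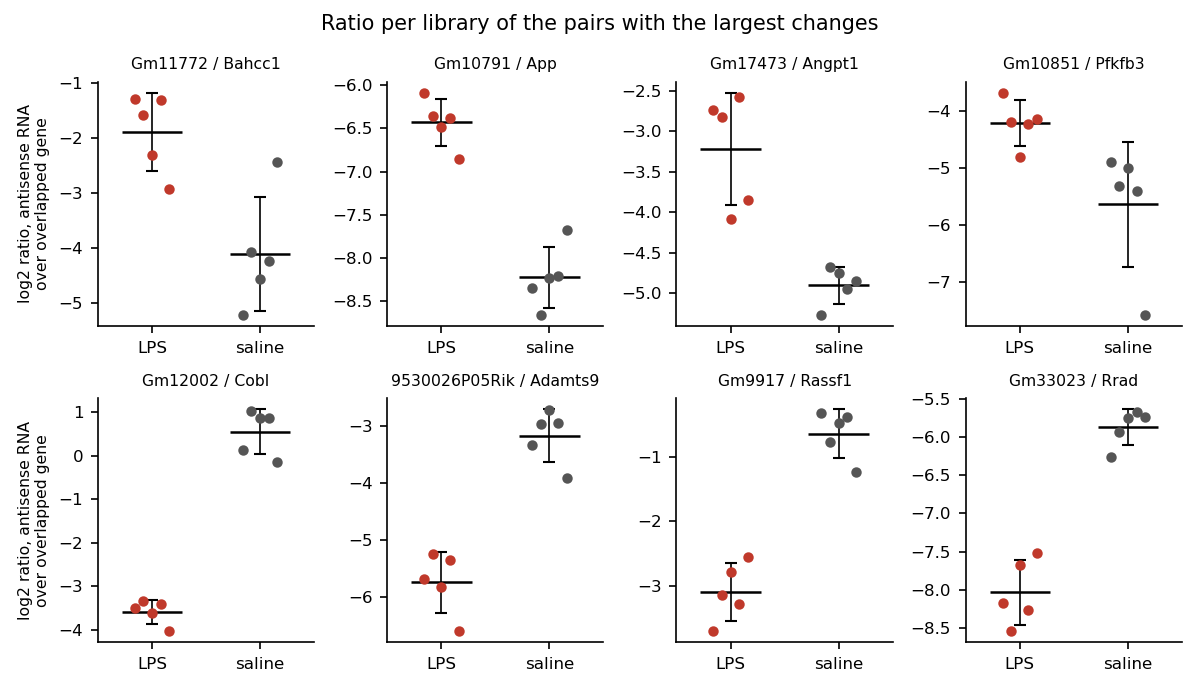
Log2 ratio of antisense RNA to overlapped gene (CPM, 0.5 added to each) in every library for the 4 pairs whose ratio rose most (upper panels) and the 4 whose ratio fell most (lower panels), LPS left and saline right, with mean and SD. Saline replicate 5 is the highest saline point for Gm11772 and Gm10791, and the lowest for Gm10851, Gm12002, 9530026P05Rik and Gm9917.

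In 7 pairs the partner rose, the ratio fell and the antisense RNA was not called. Besides Adamts9 these partners were Traf3ip2, Pdgfa, Tlk2, Rasip1, Plet1 and Rab10. With 0.1 CPM added, the ratio of A030001D20Rik to Rasip1 was not called (-0.62, limma adjusted p = 0.117). Pdgfa, a platelet-derived growth factor gene, had 21.6, 27.7, 36.1, 28.6 and 39.4 CPM in LPS hearts, against 11.1, 10.7, 12.3, 9.77 and 12.4 CPM in saline hearts. Across its 5′ end, 6330403L08Rik had 16.2, 15.6, 16.4, 15.4 and 19.03 CPM in LPS hearts, against 18.1, 15.1, 17.3, 16.5 and 15.8 CPM in saline hearts. The level of 6330403L08Rik differed by 0.00 ± 0.10 on the log2 scale while Pdgfa rose by 1.45 ± 0.15 (SE, edgeR adjusted p = 6.03e-06), although the pair shares 813 exonic bases.

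Traf3ip2, the adaptor of the interleukin-17 receptor, rose by 1.74 ± 0.21 on the log2 scale against 0.35 ± 0.16 for E130307A14Rik (SE). Tlk2, a chromatin-assembly kinase gene, rose by 1.40 ± 0.16 against -0.18 ± 0.23 for 1700052K11Rik, and Rab10, a vesicle-transport GTPase gene, by 0.60 ± 0.10 against 0.05 ± 0.15 for Rab10os (SE). The limma adjusted p of the ratio was 0.000499 for E130307A14Rik, 0.000196 for 1700052K11Rik and 0.0186 for Rab10os. Without saline replicate 2 the Rab10os ratio was not called (-0.49, limma adjusted p = 0.0503).

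None of the 94 had as its partner a gene from a list of 108 immune genes, of which 88 rose and 1 fell in these hearts. The list covers few of the 54532 genes and is not complete. It leaves out Il7 and Traf3ip2, the partners of Gm16685 and E130307A14Rik. The absence therefore does not show that these RNAs overlap no immune gene. From a list of 71 heart genes, 5 were partners, and of their antisense RNAs 2 fell, among them Gm49130, and 3 were not called (Mhrt, Kcnq1ot1 and D830005E20Rik). None of these 5 partners was called. D830005E20Rik, inside the triadin gene Trdn, had 13.96, 16.1, 7.18, 13.0 and 19.2 CPM in LPS hearts, against 12.2, 18.9, 12.1, 13.4 and 19.2 CPM in saline hearts. From a list of 90 vessel and metabolism genes 5 were partners, and of their antisense RNAs 2 rose (Gm10851 and Dnm3os), 1 fell (Gm12002) and 2 were not called (Airn and 9530026P05Rik).

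Summed, the 94 antisense RNAs took 0.0591%, 0.0506%, 0.0483%, 0.0466% and 0.0527% of the reads in LPS hearts, against 0.0585%, 0.0574%, 0.0591%, 0.0585% and 0.0551% in saline hearts. The means were 0.0515% ± 0.00485 in LPS hearts and 0.0577% ± 0.00157 in saline hearts (SD, n = 5 each; two-sided exact permutation p = 0.0476 over all assignments of the libraries to groups). LPS replicate 1 was as high as the highest saline library. A share of reads rests on total count scaling, with which the median log2 fold change was -0.30 for all tested genes and -0.29 for the 94. The lower share is therefore not shown to be particular to antisense RNAs. Leaving out any 1 library other than LPS replicate 1 or saline replicate 5 brought the exact p to between 0.0635 and 0.0873. The denominator bore on it as well. Out of reads not from mitochondrially encoded genes the difference was -0.00816 percentage points (exact permutation p = 0.0159), and out of reads not from the 20 most abundant genes it was -0.0104 (exact permutation p = 0.00794). With both of these, LPS replicate 1 was below the highest saline library.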

How the data were processed

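Heart RNA in 10 libraries was sequenced after an Illumina TruSeq RNA preparation, per the labels' protocols. The authors deposited read counts per gene and FPKM (reads scaled to gene length and library size) for 54532 genes. Counting tool, annotation and strand setting: not given in the sources used here. Bowtie 0.12.2 and mm9 stand in the submitters' processing notes, with no role. Coordinates in the count table equal those of GENCODE M21 (GRCm38) for 53499 genes and 93 of the 94 antisense RNAs, so GRCm38 is given. Another 20 columns of FPKM values per library in other tables, in part named for a different time, were not used.

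Counts were tested with edgeR 4.0.16 in R 4.3.3 (filterByExpr with minimum count 10, TMM, quasi-likelihood F-test with robust estimation, Benjamini-Hochberg over 13864 genes, threshold 0.05). Counts were divided by TMM-scaled library sizes to give CPM. FPKM served only to compare levels between genes. Ratios to the opposite-strand gene with the longest overlap were tested with limma 3.58.1 over 1436 pairs. Exons came from GENCODE M21 and promoter sequences from RefSeq. Both tests were run on simulated data first. Alternatives were other scalings, filters, DESeq2 1.42.0, limma voom, pseudocounts, minimum counts, a replicate block and leaving out each library. Replicate numbers from the titles did not pair the libraries, and nothing says that libraries came from separate animals beyond their numbering, so p-values measure the spread between these libraries.

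The antisense RNAs and the gene lists were chosen with earlier results of these data known. Named are the 8 largest rises and falls at a mean of 1 CPM or more, the 6 highest levels, the 4 largest ratio changes each way, those on the lists or with listed partners, and those beside the minimum count. The other called RNAs, those whose call depended on saline replicate 5, those with a changed ratio and a called partner, 4631405J19Rik, Map2k3os and Trmt61b were named after their values were seen. The values of 1 RNA that fell, and of its partner, are not reported here.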

Additional observations from a re-analysis of the deposited data

Results flagged for a closer look

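A library was singled out when its gap to the nearest of the other 4 exceeded the critical value of 0.71 of its group's range in Dixon's test. Of 192 groups of 5 examined, 20 had such a library, where chance gives about 1 in 20 groups, and in 10 of the 20 it was saline replicate 5. The antisense RNAs in which saline replicate 5 was the highest of its group were AC113595.1 (9.14 CPM), Etohd2 (6.11 CPM), Gm10851 (1.66 CPM) and Gm11772 (1.54 CPM). The overlapped genes were Pfkfb3 (409 CPM), Rab10 (154.0 CPM), Gna13 (78.7 CPM), Adamts9 (56.1 CPM), Rasip1 (41.1 CPM) and Traf3ip2 (6.11 CPM). In all 10 the LPS mean was above the saline mean.

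LPS replicate 5 was the highest of its group for 6330403L08Rik (19.03 CPM), Airn (10.5 CPM) and Kcnq1ot1 (3.41 CPM), and for the genes Myh6 (18726 CPM), Myh7 (72.9 CPM) and Mib1 (53.9 CPM). The others were Ccnl1, lowest in LPS replicate 3 at 50.7 CPM, Tep1 and Kcnq1ot1, highest in saline replicate 2 at 14.1 and 3.17 CPM, and 4631405J19Rik, lowest in saline replicate 3 at 3.53 CPM.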

How the results depend on the processing

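The 17 rises and 8 falls moved most with the minimum count and with scaling. With a summed count of at least 100 there were 31 rises and 14 falls among 157 tested RNAs (19.7% and 8.92%), and with 500 there were 7 and 5 among 47 (14.9% and 10.6%). Falls numbered 14 with upper quartile scaling and 21 with total count scaling, which moved the median of all genes to -0.18 and -0.30. The count of ratios that rose or fell was 24 and 25 of 125 pairs at the minimum of 100, and 7 and 10 of 34 pairs at 500. Leaving out each library in turn gave 14 to 20 rises, 6 to 9 falls, 11 to 15 ratios that rose and 14 to 17 that fell. The difference in the share of reads stayed negative, from -0.00819 to -0.00507 percentage points, with exact p above 0.05 in 8 of these 10 omissions. It was -0.00816 (exact p = 0.0159) without mitochondrially encoded genes in the denominator and -0.0104 (exact p = 0.00794) without the 20 most abundant genes. With the replicate block there were 17 rises, 7 falls, 13 ratios that rose and 17 that fell, and Gm16536 and Mir133a-1hg lost their calls. Same-numbered libraries deviated with correlations of -0.07 to 0.18, so the numbers are not taken to pair the libraries.

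The sign turned round in 2 results. Myh6 fell by 0.23 with total count scaling (edgeR adjusted p = 0.0364), less than the shift of all genes, and the ratio of Gm10851 to Pfkfb3 was -0.17 with 2 CPM added (limma adjusted p = 0.88). The median level was 3.21 CPM, and an RNA that was not called is not shown to be unchanged. Whether low counts account for missing calls was not tested. Reads of overlapping exons cannot be told apart without strand. Nor can reads of a partner's introns where these hold exons of an antisense RNA, also in pairs with no exonic base shared.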

Other observations

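Some names do not describe an overlap. Map2k3os overlaps no gene of the table on the opposite strand. It averaged 3.98 ± 1.42 CPM in LPS hearts and 4.52 ± 0.640 CPM in saline hearts (SD, n = 5 each) and was not called. Map2k3, the gene of an upstream kinase of the stress-activated pathway, averaged 80.2 ± 8.22 CPM in LPS hearts and 54.5 ± 6.25 CPM in saline hearts (SD, n = 5 each) and rose by 0.56 ± 0.10 on the log2 scale (SE, edgeR adjusted p = 0.000555). Trmt61b, the name of a protein-coding gene, carries the biotype antisense in the table and averaged 2.23 ± 0.692 CPM in LPS hearts and 1.94 ± 0.371 CPM in saline hearts (SD, n = 5 each).

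In the pair of 4631405J19Rik with Prdm11 the ratio was called higher although neither gene was. 4631405J19Rik had 5.32, 4.35, 4.97, 5.64 and 6.17 CPM in LPS hearts, against 4.85, 5.01, 3.53, 5.32 and 5.34 CPM in saline hearts. Prdm11 averaged 7.71 ± 1.80 CPM in LPS hearts and 10.1 ± 1.15 CPM in saline hearts (SD, n = 5 each). The log2 ratio changed by 0.51 ± 0.16 (SE, limma adjusted p = 0.0242), and the call was lost in 5 of the alternatives.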
